A study of Mus musculus with 7 samples.

Results

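The purinergic signalling genes of microglia were described across 7 RNA-seq libraries of cells taken from the mouse dorsal hippocampus. The members are 10 genes listed by name: the nucleotide receptors P2ry12, P2ry13, P2ry6, P2rx4 and P2rx7, the lysophospholipid receptor Gpr34, the adenosine receptors Adora3 and Adora2a, and the ectonucleotidases Entpd1 and Nt5e. All 10 were found among the 55401 genes of the deposited count table, and all 10 passed the filter on low counts, which left 19199 genes. The animals were C57BL/6 mice, given as adult males of 6 to 8 weeks. The dorsal dentate gyrus of every mouse was injected with AAV-RAM-Cre, a virus whose synthetic RAM promoter drives Cre in neurons that have been active. For 4 libraries (EYFP 1 to EYFP 4) the Cre-dependent partner virus carried EYFP, a fluorescent protein, and for 3 libraries (ATG7 1 to ATG7 3) it carried Atg7-Flag, a tagged gene of the autophagy pathway. The transgene was therefore directed to neurons, whereas the RNA came from hippocampal cells enriched with beads against CD11b, a surface protein of microglia and other myeloid cells. The labels do not say whether a library came from 1 mouse or from several, so p-values measure the spread between these libraries.

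Microglia read extracellular nucleotides through 2 families of receptors. P2Y receptors are coupled to G proteins and P2X receptors are ion channels opened by ATP. ATP released by active or damaged cells is cut stepwise outside the cell, first by ENTPD1 (CD39) to ADP and AMP and then by NT5E (CD73) to adenosine, which acts on the adenosine receptors. P2RY12, the ADP receptor by which microglial processes find sites of ATP release, is a widely used marker of homeostatic microglia.

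Total counts lay between 35934210 and 55217119 per library and did not differ between groups beyond their spread (exact permutation p = 0.286, two-sided, where the smallest p that 4 against 3 libraries allow is 0.0286). The 15 microglia markers were present in every library and together made up 2.90% to 3.66% of the scaled counts, with Csf1r, the receptor of microglial survival factors, at 5780.3 to 7234 CPM (counts per 1000000 counts of the library, scaled by trimmed means of M values, TMM). The 8 choroid plexus markers reached summed levels of 37984 to 49230 CPM in EYFP and 32154 to 42101 CPM in ATG7. Most of this sum was 1 gene, Ttr, at 29096 to 44601 CPM over the 7 libraries, and the next, Kl, stood at 1275 to 1925 CPM. All 8 point estimates were lower in ATG7, with 0 of the 8 called by edgeR, DESeq2 or limma-voom. An unadjusted p under 0.05 was found for 3 of the 8, where 12% of all genes had one. The 8 lymphocyte markers were scarce, at 1.20 to 3.84 CPM in EYFP and 4.62 to 12.2 CPM in ATG7 when summed, and their groups did not overlap. Of the 6 lymphocyte markers tested, 0 were called by edgeR and limma-voom and 2 by DESeq2 (which called 3.05% of all genes), 5 had an unadjusted p under 0.05, and none of the 8 listed was at 0 in every library. The library labelled EYFP 3 had an Xist level that went against the stated sex. Xist, the transcript of the inactive X chromosome, stood there at 938.5 CPM against 0.151 to 0.574 CPM in the other 6 libraries. Y-linked genes were lower in EYFP 3 but present. Ddx3y was at 27.6 CPM against 121 to 169 CPM, and Eif2s3y at 13.3 CPM against 50.9 to 69.4 CPM. Kdm5d and Uty stood at 8.09 and 7.38 CPM in EYFP 3. Whether this library mixed RNA of both sexes was not tested. The log2 fold change of each member is given with and without EYFP 3. Atg7 itself was at 32.0 to 37.6 CPM, with overlapping groups (log2 fold change -0.03, edgeR adjusted p = 0.939), and the cells that its reads came from were not determined.

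Compared per length, as CPM per kilobase of merged exons, the members differed widely in level. P2ry12 stood highest at 1127 ± 141 (SD, n = 7 libraries), above 99.9% of the genes tested. Gpr34 followed at 502 ± 57.4 and P2ry13 at 398 ± 50.1. The ranges of these 2 genes overlapped over the 7 libraries, although Gpr34 was the higher of the pair within each of the 7. Entpd1 came next at 105 ± 12.3, then P2ry6 at 56.9 ± 4.87 and P2rx7 at 41.5 ± 4.14, and none of these 3 ranges overlapped its neighbour. Adora3 reached 16.0 ± 2.43 and P2rx4 9.45 ± 1.59. Nt5e and Adora2a were last, at 0.934 ± 0.194 and 0.874 ± 0.192, with overlapping ranges and with Nt5e the higher in 5 of 7 libraries. Adora2a stood above 28.0% of the genes tested. All 10 kept their place when the longest transcript was used in place of merged exons. Among the 10 members, Entpd1, which starts the breakdown of ATP, was thus measured far above Nt5e, which makes adenosine. P2ry12 and P2ry13 were far above the adenosine receptors Adora3 and Adora2a, a comparison that covers no receptor outside the list.

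**Figure D1:**
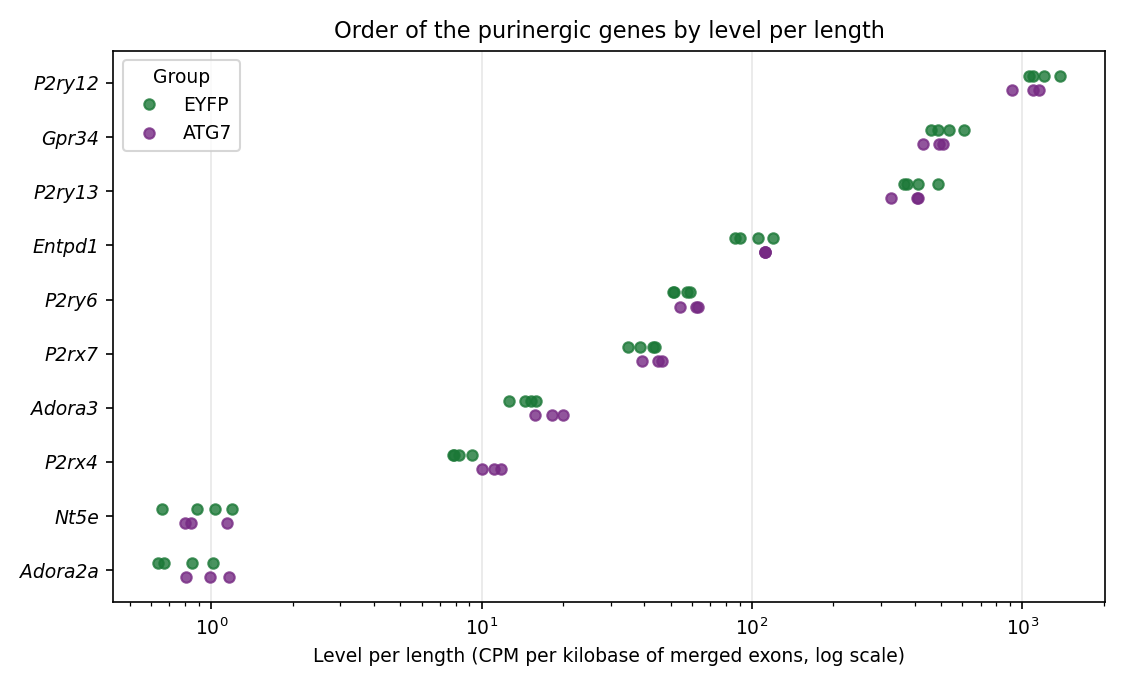
Level of each gene per length in every library, as CPM per kilobase of merged exons on a log axis, with green points for the 4 EYFP libraries and purple points for the 3 ATG7 libraries. P2ry12 lies near 1127, P2rx4 near 9.45, and Nt5e and Adora2a share the lowest range.

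The comparison of ATG7 with EYFP asks how microglial transcripts respond to extra Atg7 in dentate neurons that have been active. None of the 10 members passed the quasi-likelihood test of edgeR at an adjusted p under 0.05, where 0.755% of the 19199 genes did (132 genes or 0.688% higher in ATG7, and 13 or 0.0677% lower). This number of genes depended on single libraries, at 28 without ATG7 2, 30 without EYFP 4 or ATG7 3, 94 without EYFP 2 and 277 without EYFP 1. P2rx4 was closest to the threshold (adjusted p = 0.0523), at 1.32 times the EYFP level. At an unadjusted p under 0.05 there were 2 of 10 members, P2rx4 and Adora3, against 12% of all genes. The DESeq2 Wald test called 1 member, P2rx4, where it called 3.05% of all genes, and limma-voom called 0 of 10, where it called 0.958% of all genes. Point estimates were higher in ATG7 for 6 members and lower for 4, with a median log2 fold change of 0.12 against -0.00 for all genes tested. P2rx4 was the only member of the 10 whose groups did not overlap, a property of 11.2% of all genes (6.33% higher and 4.91% lower in ATG7). These are bulk measurements, in which fewer cells of a type and less RNA per cell cannot be told apart.

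**Figure D2:**
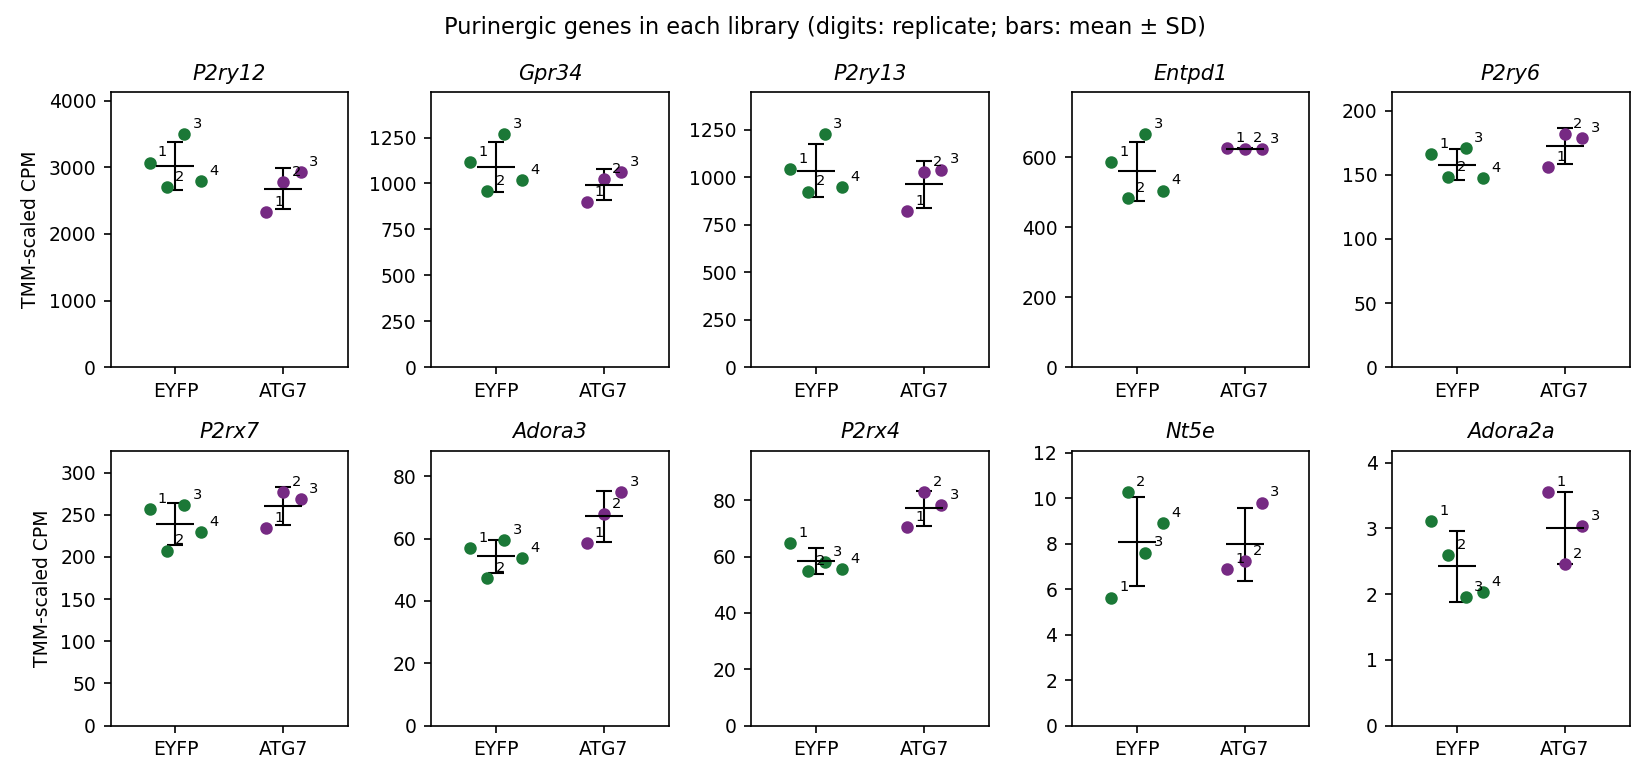
TMM-scaled CPM of each of the 10 genes in every library, with the replicate number beside each point and the mean ± SD of each group (EYFP n = 4, ATG7 n = 3) as black bars; each panel starts at 0. Only in the P2rx4 panel do all 3 ATG7 points (70.4 to 82.8) lie above all 4 EYFP points (54.9 to 64.9).

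Among the members that encode receptors coupled to inhibitory G proteins, P2ry12 (ENSMUSG00000036353, chr3:59216272-59262871, minus strand, GRCm38) was the most abundant. Its levels were 3067, 2697, 3498 and 2793 CPM in EYFP 1 to 4, and 2330.2, 2781 and 2925 CPM in ATG7 1 to 3. EYFP 3 was the highest and ATG7 1 the lowest, and the other 5 libraries lay together between them. The group means were 3014 ± 359 (SD, n = 4) and 2679 ± 310.4 (SD, n = 3), a log2 fold change of -0.17 ± 0.121 (SE) with a 95% interval from -0.44 to 0.10 (edgeR adjusted p = 0.647). Without EYFP 3 the log2 fold change was -0.10 (edgeR adjusted p = 0.796).

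P2ry13 (ENSMUSG00000036362, chr3:59207892-59210882, minus strand), a second ADP receptor, lies 5389 bases from P2ry12 on the same strand. It stood at 1043, 925, 1229 and 948 CPM in EYFP 1 to 4 and at 822, 1027 and 1040.4 CPM in ATG7 1 to 3. The same 2 libraries, EYFP 3 and ATG7 1, were its highest and lowest. The means were 1036 ± 138 (SD, n = 4) and 963 ± 122 (SD, n = 3), with a log2 fold change of -0.10 ± 0.123 (SE) and an interval from -0.38 to 0.17 (edgeR adjusted p = 0.805). The estimate was -0.02 without EYFP 3 (edgeR adjusted p = 0.968) and -0.00 without ATG7 1 (edgeR adjusted p = 0.997).

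Gpr34 (ENSMUSG00000040229, chrX:13632089-13640858, plus strand) encodes a receptor for lysophosphatidylserine that is enriched in microglia. Its levels were 1118, 959.9, 1269.6 and 1017 CPM in EYFP and 897, 1025 and 1060.2 CPM in ATG7. Again EYFP 3 was highest and ATG7 1 lowest, and the groups overlapped. The means were 1091 ± 136 (SD, n = 4) and 994 ± 86.0 (SD, n = 3), with a log2 fold change of -0.13 ± 0.112 (SE) and an interval from -0.38 to 0.11 (edgeR adjusted p = 0.706). Gpr34 is X-linked, and without the library labelled EYFP 3 its log2 fold change was -0.06 (edgeR adjusted p = 0.876).

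These 3 receptors moved together from library to library. Over the 7 libraries the coefficient of variation was 12.5% for P2ry12, 12.6% for P2ry13 and 11.4% for Gpr34. As a ratio to P2ry12 in the same library it fell to 3.05% for P2ry13 and 2.48% for Gpr34. Their Pearson correlations of log2 CPM with P2ry12 were 0.971 for P2ry13 and 0.984 for Gpr34 over the 7 libraries, which share depth and cell composition. The 5 genes outside the list most like P2ry12, among 10260 genes with a mean CPM of at least 10, were Bank1 (0.989), Ctsf (0.988), Chsy1 (0.984), Pmepa1 (0.980) and Pmp22 (0.980). The summed microglia markers had other extremes over the 7 libraries, with ATG7 3 highest at 36571 CPM and EYFP 4 lowest at 29004 CPM, while EYFP 3 and ATG7 1 stood at 34089 and 30135 CPM. The part of cell composition in the shared variation was not tested.

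P2ry12 and P2ry13 are shown here by their start regions because they neighbour each other and varied together. The windows run from 250 bases before to 50 bases after the RefSeq start (GRCm38.p6), written 5′ to 3′ on the gene's strand, with motif matches in capitals. The capitals in P2ry12 (chr3:59262936-59263235) match the core of an NF-kB site, read on the opposite strand, and those in P2ry13 (chr3:59210833-59211132) match GAGGAA, the core of a PU.1 site.
P2ry12: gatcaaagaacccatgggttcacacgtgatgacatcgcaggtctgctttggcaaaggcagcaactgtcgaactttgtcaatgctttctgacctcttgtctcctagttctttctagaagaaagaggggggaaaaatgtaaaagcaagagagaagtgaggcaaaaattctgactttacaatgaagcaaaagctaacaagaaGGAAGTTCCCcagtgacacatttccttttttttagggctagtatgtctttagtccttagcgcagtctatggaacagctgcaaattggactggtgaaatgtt
P2ry13: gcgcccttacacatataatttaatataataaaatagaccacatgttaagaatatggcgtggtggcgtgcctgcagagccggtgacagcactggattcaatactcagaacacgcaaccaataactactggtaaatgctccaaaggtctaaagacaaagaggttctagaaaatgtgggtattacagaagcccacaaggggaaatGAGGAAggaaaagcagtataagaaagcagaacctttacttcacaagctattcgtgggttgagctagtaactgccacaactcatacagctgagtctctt
Motifs were sought on both strands. GAGGAA was found in 28.3% of 32851 windows of the same length and the NF-kB core in 20.7%, so these matches are common ones. The other 2 motifs sought, the interferon-stimulated response element core (3.44% of windows) and the STAT site TTCNNNGAA (8.30%), were in neither window. The RefSeq start of P2ry12 lies 114 bases from its start in the GENCODE annotation used here for coordinates.

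P2ry6 (ENSMUSG00000048779, chr7:100937630-100974649, minus strand), the UDP receptor linked to microglial phagocytosis, is coupled to Gq. Its levels were 166, 148, 171 and 147 CPM in EYFP 1 to 4 and 156, 182 and 179 CPM in ATG7 1 to 3. ATG7 2 and ATG7 3 were above every EYFP library and ATG7 1 lay among them. The means were 158 ± 12.1 (SD, n = 4) and 172 ± 14.2 (SD, n = 3), with a log2 fold change of 0.12 ± 0.0862 (SE) and an interval from -0.07 to 0.31 (edgeR adjusted p = 0.636). Without EYFP 3 it was 0.16 (edgeR adjusted p = 0.537). Its direction turned under a scaling to microglia marker counts, to -0.01, where the median of all genes shifted to -0.14.

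P2rx4 (ENSMUSG00000029470, chr5:122707544-122729738, plus strand) encodes an ATP-gated channel that is found largely on lysosomes in microglia and is known for its rise in spinal microglia after nerve injury. It stood at 64.9, 54.9, 58.0 and 55.7 CPM in EYFP 1 to 4 and at 70.4, 82.8 and 78.3 CPM in ATG7 1 to 3. Every ATG7 library was above every EYFP library, with EYFP 1 the nearest to them. The means were 58.4 ± 4.56 (SD, n = 4) and 77.1 ± 6.29 (SD, n = 3), a log2 fold change of 0.40 ± 0.0819 (SE) with an interval from 0.22 to 0.58, or 1.17-fold to 1.5-fold. The unadjusted p was 0.000449 and the edgeR adjusted p was 0.0523. The summed lymphocyte markers also did not overlap between groups, at 1.20 to 3.84 CPM in EYFP and 4.62 to 12.2 CPM in ATG7, and their part in the P2rx4 difference was not tested.

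The P2rx4 estimate stayed positive under all 16 alternative ways of processing and its call did not. Its log2 fold change lay between 0.27 and 0.47, with adjusted p between 0.00163 and 0.536. It passed the threshold with no filter on low counts (edgeR adjusted p = 0.00996, where 0.9% of genes passed), with DESeq2 (adjusted p = 0.00163), without EYFP 1 (edgeR adjusted p = 0.0172, 1.46% of genes) and without ATG7 1 (edgeR adjusted p = 0.0450, 0.751% of genes). Without the library labelled EYFP 3 it was 0.39 (edgeR adjusted p = 0.107). Scaled to the counts of microglia markers, it was 0.27 (edgeR adjusted p = 0.365), 0.40 above the shifted median of all genes. That distance was 0.41 in the TMM fit of all 7 libraries. A change of scaling shifts all genes nearly alike, so the distance restates the TMM estimate and is no separate support.

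**Figure D3:**
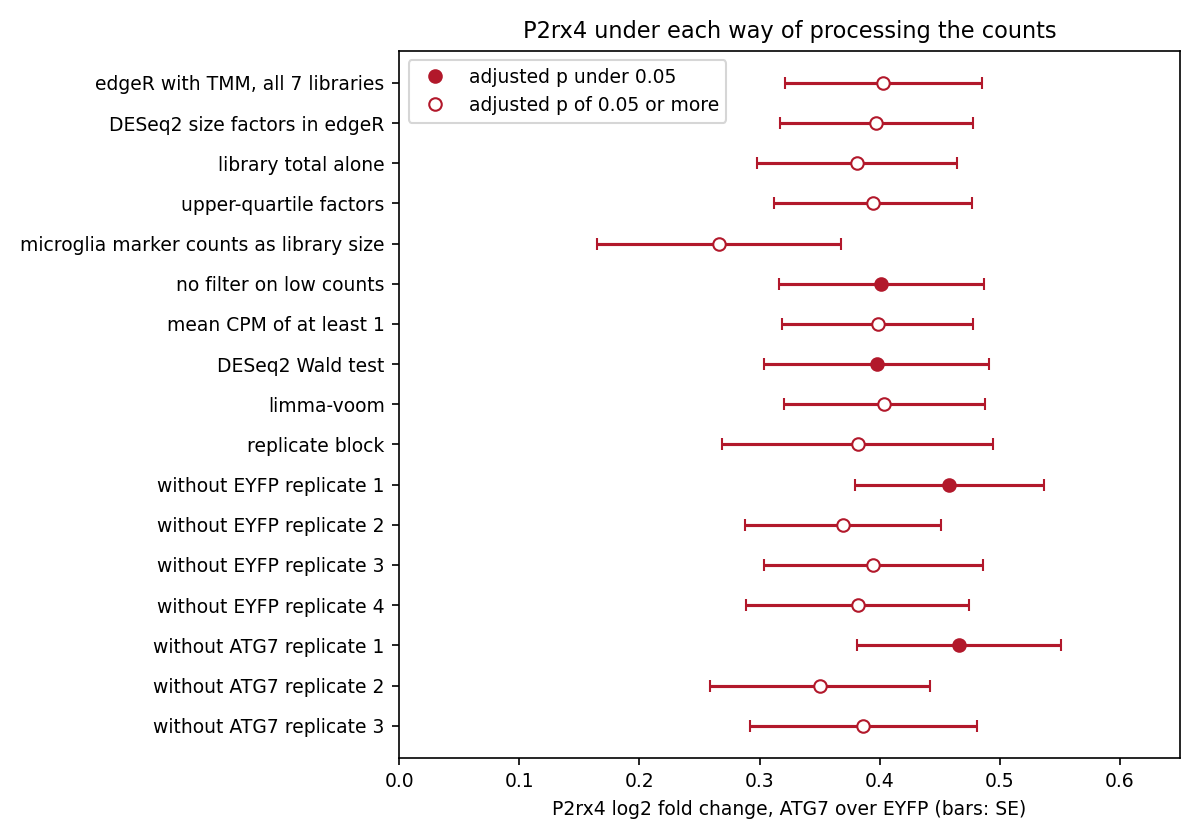
Log2 fold change of P2rx4 (ATG7 over EYFP) with its SE under the fit of all 7 libraries and each of the 16 alternatives, filled where the adjusted p was under 0.05. Every estimate lies between 0.27 and 0.47, and 4 of the alternatives pass the threshold.

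P2rx7 (ENSMUSG00000029468, chr5:122643911-122691432, plus strand), the ATP-gated channel upstream of inflammasome activation, ends 16111 bases before P2rx4 begins on the same strand. Its levels were 256, 208, 261 and 229 CPM in EYFP and 234, 276 and 269 CPM in ATG7. The groups overlapped, with ATG7 1 below 2 of the EYFP libraries. The means were 239 ± 25.0 (SD, n = 4) and 259.9 ± 22.4 (SD, n = 3), a log2 fold change of 0.12 ± 0.0987 (SE) with an interval from -0.09 to 0.34 (edgeR adjusted p = 0.693), and it too turned, to -0.01, under the microglia marker scaling. Without EYFP 3 it was 0.16 (edgeR adjusted p = 0.579). Per length, P2rx4 stood at 20.9% ± 1.53 (SD, n = 4) of P2rx7 in EYFP and 25.2% ± 0.424 (SD, n = 3) in ATG7, and the ATG7 range of 24.8% to 25.5% lay above the EYFP range of 18.9% to 22.5%. This ratio was chosen after the values were seen and carries no test.

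The start regions of these 2 neighbouring channel genes are shown because the groups did not overlap for P2rx4 and did for P2rx7. The P2rx4 window (chr5:122707294-122707593) held none of the 4 motifs, so it has no capitals, and the P2rx7 window (chr5:122643677-122643976) held 1 GAGGAA, in capitals.
P2rx4: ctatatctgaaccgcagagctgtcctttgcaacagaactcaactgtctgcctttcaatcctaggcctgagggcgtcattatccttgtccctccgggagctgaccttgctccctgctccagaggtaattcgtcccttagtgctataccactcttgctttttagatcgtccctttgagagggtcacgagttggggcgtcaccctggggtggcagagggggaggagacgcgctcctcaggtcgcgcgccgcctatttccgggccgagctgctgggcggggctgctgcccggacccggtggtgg
P2rx7: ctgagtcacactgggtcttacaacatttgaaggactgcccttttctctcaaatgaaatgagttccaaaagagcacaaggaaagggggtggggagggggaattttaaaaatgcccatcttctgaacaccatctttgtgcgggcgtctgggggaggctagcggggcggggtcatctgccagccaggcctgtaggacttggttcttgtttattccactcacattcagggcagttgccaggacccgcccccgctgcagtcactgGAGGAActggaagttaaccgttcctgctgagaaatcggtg
The RefSeq start in this P2rx7 window lies 16 bases from the GENCODE start, and a second RefSeq window of P2rx7 (chr5:122650133-122650432), not printed, also held 1 match to GAGGAA. The P2rx4 window is also richer in G and C, at 60.3% against 53.3% for P2rx7 and 42.3% for each of P2ry12 and P2ry13. Of the 10 members, 7 had a window in the RefSeq table.

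Adora3 (ENSMUSG00000000562, chr3:105870858-105908926, plus strand), an adenosine receptor coupled to Gi, was the second member with an unadjusted p under 0.05. It stood at 56.9, 47.2, 59.4 and 53.7 CPM in EYFP 1 to 4 and at 58.6, 67.8 and 74.8 CPM in ATG7 1 to 3. The groups overlapped only through ATG7 1, which lay just below EYFP 3. The means were 54.3 ± 5.28 (SD, n = 4) and 67.1 ± 8.11 (SD, n = 3), a log2 fold change of 0.30 ± 0.0990 (SE) with an interval from 0.09 to 0.52 (unadjusted p = 0.0104, edgeR adjusted p = 0.236). Without EYFP 3 it was 0.35 (edgeR adjusted p = 0.205). The annotation places Tmigd3 on the same strand over 20.9% of the exon bases of Adora3, so reads of the 2 genes could not be fully separated, and Tmigd3 was counted at 1.13 to 1.69 CPM (log2 fold change -0.14, edgeR adjusted p = 0.878).

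Adora2a (ENSMUSG00000020178, chr10:75316877-75334784, plus strand), the Gs-coupled adenosine receptor, was near the bottom of the range, with 83 to 142 counts per library. Its levels were 3.11, 2.59, 1.95 and 2.04 CPM in EYFP and 3.55, 2.46 and 3.03 CPM in ATG7. The groups overlapped, with EYFP 1 above 2 of the ATG7 libraries. The log2 fold change was 0.31 ± 0.221 (SE), with an interval from -0.17 to 0.80 (edgeR adjusted p = 0.646), an interval that holds both 0 and the 0.40 measured for P2rx4. Without EYFP 3 it was 0.22 (edgeR adjusted p = 0.776).

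Entpd1 (ENSMUSG00000048120, chr19:40612366-40741602, plus strand), the ectonucleotidase CD39 of microglia, stood at 587, 482, 667 and 505 CPM in EYFP 1 to 4 and at 625, 625 and 623 CPM in ATG7 1 to 3. The ATG7 libraries were almost equal, with a coefficient of variation of 0.216%, and fell inside the EYFP range, whose coefficient was 15.0%. The means were 560.2 ± 84.0 (SD, n = 4) and 624 ± 1.35 (SD, n = 3), a log2 fold change of 0.16 ± 0.111 (SE) with an interval from -0.09 to 0.40 (edgeR adjusted p = 0.647). Without EYFP 3, the highest library, it was 0.25 (edgeR adjusted p = 0.334). Whether the spread of the 2 groups differs was not tested.

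Nt5e (ENSMUSG00000032420, chr9:88327197-88372092, plus strand), the enzyme CD73 that releases adenosine from AMP, was scarce, with 206 to 470 counts per library. It stood at 5.63, 10.2, 7.60 and 8.88 CPM in EYFP and at 6.87, 7.23 and 9.81 CPM in ATG7. The groups overlapped throughout, with EYFP 1 and EYFP 2 at the ends. The means were 8.09 ± 1.97 (SD, n = 4) and 7.97 ± 1.6 (SD, n = 3), a log2 fold change of -0.02 ± 0.20 (SE) with an interval from -0.46 to 0.42 (edgeR adjusted p = 0.981), and its sign turned when EYFP 2 or EYFP 4 or ATG7 1 or ATG7 2 was left out. Without EYFP 3 it was -0.06 (edgeR adjusted p = 0.949). In EYFP its order over the libraries was that of the summed choroid plexus markers, most of which was Ttr, from EYFP 1 at 37984 CPM to EYFP 2 at 49230 CPM. In ATG7 it was not, and the part of these cells in Nt5e was not tested.

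Relative to P2ry12 in the same library, most of the other members stood higher in ATG7. Per length, P2rx4 was 0.707% ± 0.0732 (SD, n = 4) of P2ry12 in EYFP and 1.05% ± 0.0675 (SD, n = 3) in ATG7. Adora3 was 1.23% ± 0.0692 and 1.71% ± 0.0405, and Entpd1 8.46% ± 0.297 and 10.7% ± 1.33. The groups did not overlap for either gene, nor for P2rx4.

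P2ry6 stood at 4.64% ± 0.240 (SD, n = 4) of P2ry12 in EYFP and 5.69% ± 0.264 (SD, n = 3) in ATG7. For P2rx7 the values were 3.38% ± 0.179 and 4.15% ± 0.20, and for P2ry13 34.6% ± 0.545 and 36.2% ± 0.896. In all, 6 of the 9 members did not overlap and were higher in ATG7, where 14% of all genes tested were higher without overlap by the same ratio and 0.646% lower. Gpr34 overlapped, at 44.1% ± 0.484 and 45.3% ± 1.41, as did Nt5e and Adora2a. The 9 ratios share a single denominator, which was itself lower in ATG7 by its point estimate, and the ratio was chosen after the values were seen, so these counts are a description with no test.

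**Figure D4:**
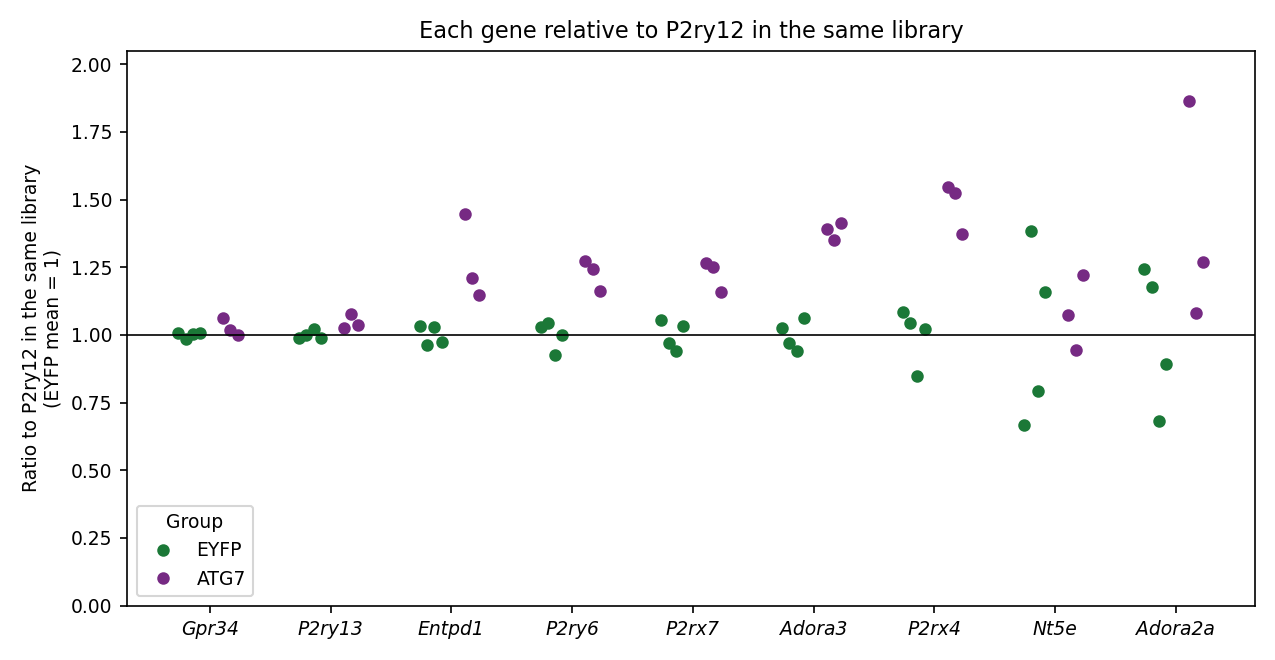
Each gene as a ratio to P2ry12 in the same library, divided by the mean ratio of the 4 EYFP libraries so that 1 (black line) is the EYFP mean; green points are EYFP libraries and purple points ATG7 libraries. The ATG7 points lie above the EYFP points for P2ry13, Entpd1, P2ry6, P2rx7, Adora3 and P2rx4, and overlap them for Gpr34, Nt5e and Adora2a.

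The genes most like P2rx4 over the 7 libraries were Slfn8 (Pearson correlation of log2 CPM 0.993), Gm5431 (0.993), Nectin4 (0.992), Adar (0.990) and Smchd1 (0.990). By edgeR, 3 of these 5 were called higher in ATG7, namely Slfn8 (log2 fold change 0.65, adjusted p = 0.0156), Gm5431 (0.65, adjusted p = 0.0342) and Adar (0.61, adjusted p = 0.0113). Among all genes tested, 0.688% were called higher. P2rx4 was picked for its smallest unadjusted p between the groups, which favours correlated genes that also differ. The count of called genes is therefore a description and no separate support for P2rx4. Nectin4 (0.42, adjusted p = 0.0751) and Smchd1 (0.24, adjusted p = 0.163) were not called. Among the members, the correlation with P2rx4 was 0.862 for Adora3, 0.779 for P2ry6 and 0.722 for P2rx7, and -0.23 for P2ry12. These correlations describe 7 libraries that share the group difference and composition.

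Around the members, 62 other genes of the pathway in 7 lists were in the table, and 58 were tested. None was called by edgeR, against 0.755% of all genes, and 9 of 58 (15.5%) had an unadjusted p under 0.05, against 12%. Point estimates were higher for 30 and lower for 28, with a median log2 fold change of 0.01. Of the 58, 2 were higher and 4 lower in ATG7 without overlap of the groups. Among all genes, 6.33% were higher and 4.91% lower without overlap. DESeq2 called 1 of the 58, P2ry10 (adjusted p = 0.0386), against 3.05% of all genes, and limma-voom 0, against 0.958%.

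Of the other P2Y and P2X receptors, 9 of 11 were tested, and 0 of 9 were called, with 3 at an unadjusted p under 0.05. P2ry10, a lysophospholipid receptor known from lymphocytes, stood at 0.847, 0.720, 0.576 and 1.40 CPM in EYFP and at 1.35, 2.15 and 2.43 CPM in ATG7. EYFP 4 was inside the ATG7 range (log2 fold change 1.16 ± 0.325 (SE), edgeR adjusted p = 0.163), and P2ry10b is a near copy with which reads may be shared. The summed lymphocyte markers were likewise higher in ATG7, at 4.62 to 12.2 CPM against 1.20 to 3.84 CPM, and their part in the P2ry10 value was not tested. P2rx6, a channel subunit, stood at 6.45, 7.87, 8.43 and 8.54 CPM in EYFP and at 5.37, 6.17 and 5.63 CPM in ATG7. Its groups did not overlap (log2 fold change -0.45 ± 0.139 (SE), edgeR adjusted p = 0.212).

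The 2 other adenosine receptors were both tested, with 0 called and 0 at an unadjusted p under 0.05. Adora2b, the low-affinity Gs-coupled receptor, stood at 15.8, 16.7, 15.4 and 15.3 CPM in EYFP and at 15.2, 13.2 and 12.6 CPM in ATG7, without overlap (log2 fold change -0.21, edgeR adjusted p = 0.424). Adora1, the Gi-coupled receptor of neurons, had a log2 fold change of 0.27 (edgeR adjusted p = 0.604). Within the adenosine receptors, Adora3 was therefore above Adora2b, Adora1 and Adora2a in scaled CPM in every library, a comparison made per gene and not per length. In the lysophosphatidylserine pathway, 3 of 4 genes were tested, with 0 called and 0 at an unadjusted p under 0.05. Abhd12, which degrades the Gpr34 ligand, was at 693 to 852 CPM (log2 fold change 0.07, edgeR adjusted p = 0.843), and Abhd16a, which makes it, was at 55.6 to 68.4 CPM (-0.05, edgeR adjusted p = 0.849). The ligand's enzymes, like Gpr34 itself, overlapped between groups.

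Of the other ectonucleotidases, 6 of 7 were tested, with 0 called and 0 at an unadjusted p under 0.05. Enpp1, which cuts ATP to AMP, stood at 11.1 to 12.1 CPM in EYFP and 11.5 to 14.1 CPM in ATG7 (log2 fold change 0.18, edgeR adjusted p = 0.562). Entpd2, which makes ADP from ATP, was at 0.731 to 1.97 CPM over all libraries (log2 fold change -0.42, edgeR adjusted p = 0.655). Entpd1 was therefore at least 482 CPM where neither of these 2 enzymes passed 14.1 CPM, again per gene and not per length. Of the 11 genes that handle adenosine, all were tested, 0 were called and 3 had an unadjusted p under 0.05. Pnp2, a purine nucleoside phosphorylase, stood at 8.47, 12.6, 10.02 and 11.2 CPM in EYFP and at 8.29, 7.46 and 7.40 CPM in ATG7, without overlap (log2 fold change -0.46, edgeR adjusted p = 0.217), and reads may be shared with its copy Pnp. Dpp4, which anchors adenosine deaminase at the cell surface and is also found on lymphocytes, had a log2 fold change of 0.55 (edgeR adjusted p = 0.41) beside the same higher lymphocyte markers, whose part was not tested.

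Of the 6 genes of nucleotide release, all were tested, with 0 called and 0 at an unadjusted p under 0.05. Lrrc8a, a subunit of the volume-regulated anion channel, was at 13.9 to 19.2 CPM (log2 fold change -0.11, edgeR adjusted p = 0.750), and Panx2, a pannexin of neurons, was at 0.532 to 3.36 CPM (-0.56, edgeR adjusted p = 0.766). The Panx2 estimate rested on EYFP 1, without which it was 0.19, and EYFP 1 also held the highest summed neuron markers, at 165 CPM against 32.4 to 69.8 CPM in the other 6 libraries; the part of neuronal RNA was not tested. The 21 genes of P2ry12 signalling, from Gi proteins to store-operated calcium entry, were all tested, 0 were called and 3 had an unadjusted p under 0.05. Stim1, the calcium sensor of the endoplasmic reticulum, stood at 106, 128, 109 and 121 CPM in EYFP and at 102, 98.2 and 102 CPM in ATG7, without overlap (log2 fold change -0.20, edgeR adjusted p = 0.338). Its partner channel Orai1 pointed the other way, at 80.4, 73.1, 87.5 and 83 CPM against 87.5, 99.5 and 90.8 CPM (log2 fold change 0.19, edgeR adjusted p = 0.355).

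**Figure D5:**
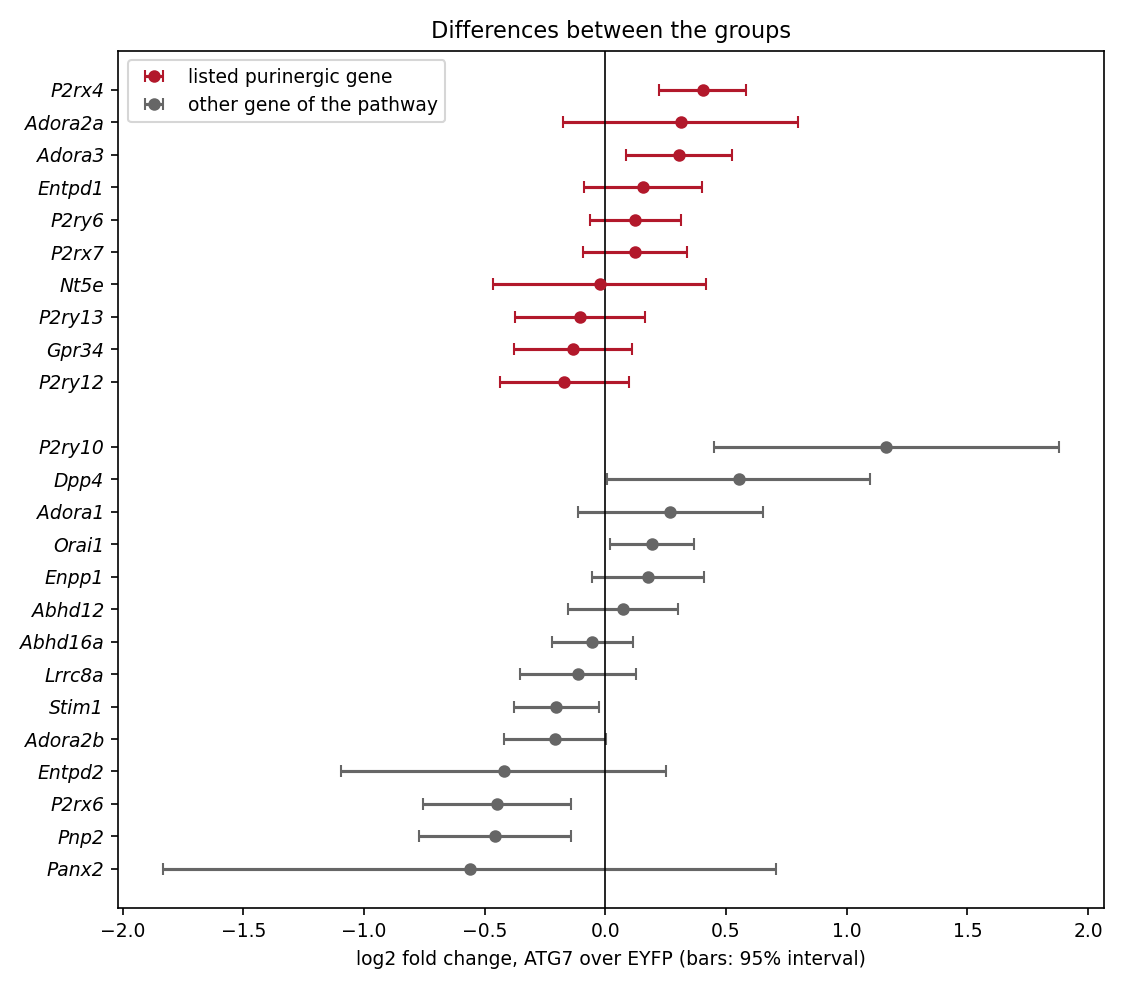
Log2 fold change of ATG7 over EYFP with its 95% interval for the 10 members (red) and the 14 other genes of the pathway that are named in the text (grey), from the edgeR fit of all genes. P2rx4 is the member farthest from 0 at 0.40, and no gene in the plot reached an adjusted p under 0.05.

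Several members overlap other annotated genes. Med12l spans P2ry12 and P2ry13 on the opposite strand and shares 9 exon bases with P2ry12, or 0.353% of its exons, and 0 with P2ry13. It was counted at 43.9 to 67.2 CPM (log2 fold change 0.03, edgeR adjusted p = 0.959), a small fraction of the P2ry12 level. Cask surrounds Gpr34 on the opposite strand with 0 shared exon bases, at 75.1 to 92.0 CPM (log2 fold change -0.06, edgeR adjusted p = 0.848). Gm44545 lies over P2ry6 on the opposite strand with 0 shared exon bases and 11 to 44 counts. Mir8115 lies within P2rx7, and Gm16027, Gm8783 and AC166063.1 within Entpd1, each with at most 7 counts. How the counting treated strand and shared reads is not given in the sources used here, so reads of overlapping genes may be mixed where exons are shared.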

How the data were processed

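The values are raw counts per gene as deposited, whole numbers in 7 columns, 1 per library, all matched by name. The submitters' processing notes name fastp 0.20.1, HISAT2 2.0.5, featureCounts and the builds GRCm38 and mm10, with no roles; the annotation release, strand setting and handling of shared reads are not given in the sources used here. All 37 mitochondrial genes were at 0 in every library. GENCODE M21 (GRCm38) matched 55141 of 55401 identifiers and left 260 unnamed. Total counts ranged from 35934210 to 55217119, and same-group pairs of libraries differed by a chi-square of 19.2 to 41.3 per degree of freedom, so each was kept as a replicate.

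All genes were fitted together by edgeR 4.0.16 in R 4.3.3 (quasi-likelihood test): TMM factors, filterByExpr, robust dispersion, all 7 libraries, no covariate, two-sided, Benjamini-Hochberg adjustment over 19199 genes, threshold 0.05. SE is the absolute log2 fold change over the square root of F, and intervals are at 95%. Log2 CPM used a prior count of 2. Levels between genes are compared per kilobase of merged exons unless stated. Alternatives were other scalings, including to microglia marker counts, other filters, the DESeq2 1.42.0 Wald test, limma-voom (limma 3.58.1), a replicate block and each library left out. The code was first tested on simulated counts of known fold change.

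The members and lists were chosen with earlier results of these data known. Named are all 10 members, every gene overlapping one, the 2 genes of each related list with the smallest p, and the 5 genes most correlated with P2ry12 and with P2rx4.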

Additional observations from a re-analysis of the deposited data

Results flagged for a closer look

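Dpp4, the surface anchor of adenosine deaminase, was at 2.17 CPM in EYFP 3 and at 3.72 to 3.90 CPM in the other 3 EYFP libraries, a gap larger than Dixon's 95% limit for 4 samples allows. Over the 28 genes compared in this way, chance gives about 1.4 such libraries and 1 was found. EYFP 3 is the library whose Xist level goes against the stated sex, and a link between the 2 values was not tested.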

How the results depend on the processing

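Over the 10 members and 16 alternatives, 149 estimates kept their direction and their side of the threshold, 4 (all P2rx4) newly passed it, and 7 turned sign. Members called numbered 0 with all libraries, 1 with no filter, 1 with DESeq2 and 0 to 1 when a library was left out. Related genes called numbered 0, and 1 with DESeq2. All genes called numbered 145 (132 higher, 13 lower), 27 with microglia marker scaling, 297 with no filter (234 higher, 63 lower), 585 with DESeq2 (407 higher, 178 lower) and 28 to 277 when a library was left out, from 28 without ATG7 2 and 30 without EYFP 4 or ATG7 3 through 94 without EYFP 2, 148 without ATG7 1 and 164 without EYFP 3 to 277 without EYFP 1. With the replicate number as a block 0 genes were called by edgeR. Libraries with the same number did not visibly deviate together (correlations of -0.06, -0.18 and 0.066, against -0.15 to 0.22 for different numbers). So few correlations cannot decide whether the numbers pair the libraries. The block turned Nt5e to 0.0460, and Nt5e ranged from -0.21 to 0.10 when a library was left out. Microglia marker scaling turned P2ry6 to -0.0101, P2rx7 to -0.0103, Abhd12 to -0.0620 and Med12l to -0.10. Leaving out a library gave ranges of -0.85 to 0.19 for Panx2, -0.14 to 0.16 for Med12l and -0.14 to 0.0131 for Abhd16a. The cause of these shifts was not tested.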
